A study of Mus musculus with 11 samples.

Results

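Transcripts of 36 genes that mark young and mature neurons were followed in 11 sequencing libraries of mouse microglia, immune cells that reside in the brain. The 36 symbols were a given list, looked up in the authors' table of 16934 genes, and all 36 were found. For summing, 10 of the 36 genes were labelled mature and the other 26 were labelled young. The 10 are the genes of vesicle release, calmodulin signalling and neurofilaments, with Thy1 and Rbfox3. The labels were assigned and not measured, and a gene among the 26 need not be silent in mature neurons. Microglia of C57BL/6 pups aged 0 to 3 days had been grown for 7 to 10 days in medium with serum. In 4 libraries the microglia had been kept for 6 h with primary cortical neurons of 14 days in vitro that had first taken up Atto488-labelled α-syn fibrils, given at 0.1 µM over 16 h, and been washed (fibril co-cultures). In 3 libraries they had been kept for 6 h with such neurons left untreated (untreated co-cultures). In 4 libraries no neurons had been added (microglia alone). The study as a whole, by its title, concerned tunneling nanotubes, thin bridges between cells. How microglia and neurons were parted before RNA was taken is not stated in the labels. Nor do they tie a library to a culture or an animal, so the p-values cover the spread between libraries and this may be technical.

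Newly born neurons carry transcripts for a growing cytoskeleton, among them tubulins, stathmins and doublecortin, and for the SoxC transcription factors that drive their maturation. As synapses form, these give way to transcripts for vesicle release, calmodulin signalling and neurofilaments. Microglia are not neurons, but some genes used as neuronal markers are also transcribed in other cells, Marcksl1 in macrophages among them.

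Libraries held 8253070 to 14844071 counts in the fibril co-cultures, 10925771 to 16802451 in the untreated co-cultures and 10700940 to 14541179 in microglia alone. Between 9157 and 11739 genes had a count in a library. Microglial markers were abundant in every group: all 18 listed, among them the receptor gene Csf1r and the complement gene C1qa, passed the filter on low counts. Their summed level was 18807 to 24752 CPM in fibril co-cultures, 21049 to 25182 CPM in untreated co-cultures and 17808 to 19960 CPM in microglia alone, where CPM is the count scaled to a common library total after TMM adjustment. Counts came from the 3′ ends of transcripts and were not divided by gene length. Levels of different genes are not ranked against each other, apart from shares of a summed CPM. Cx3cr1, the fractalkine receptor gene, was the only one of the 18 called, with 1858 ± 521 CPM in fibril co-cultures, 1880.1 ± 312 CPM in untreated co-cultures and 602 ± 158 CPM in microglia alone (both co-cultures against microglia alone: log2 fold change 1.64, SE 0.25, edgeR adjusted p = 0.00151). In bulk samples, fewer cells of a type and less RNA per cell cannot be told apart.

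Transcripts of listed genes were present in the libraries of microglia without added neurons, and most of the 36 genes had a higher mean level there than in the co-cultures. Which cells these transcripts came from was not tested. The number of them detected overlapped between groups. Between 15 and 23 of the 36 genes had a count in a fibril co-culture library, 11 to 21 in an untreated co-culture library and 19 to 29 in a library of microglia alone. The mean level over the 7 co-culture libraries was the higher one for 9 genes, the mean over the 4 libraries of microglia alone was the higher one for 26, and Snap25 had no count anywhere. The 9 were Marcksl1, Stmn3, Kif1a, Kif5a, Thy1, Nrgn, Camk2a, Nefl and Nefm. Only Basp1, Marcksl1, Sox4, Elavl3 and Nnat had a count in all 11 libraries.

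**Figure D1:**
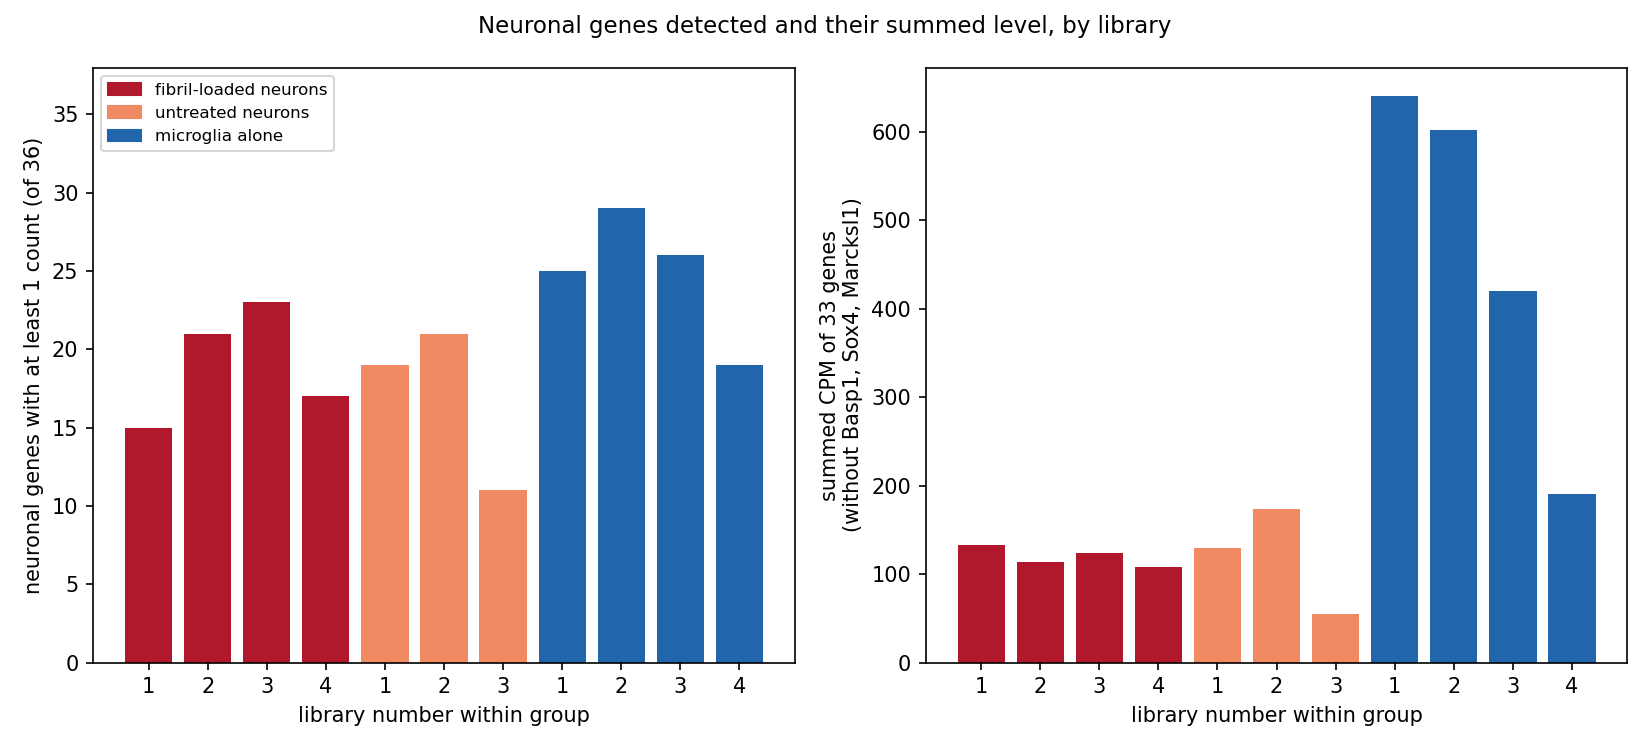
Left, number of the 36 neuronal genes with at least 1 count in each library; right, summed CPM of 33 of them, leaving out Basp1, Sox4 and Marcksl1. Bars are single libraries of fibril co-cultures, untreated co-cultures and microglia alone; the 4 libraries of microglia alone summed to 191 to 641 CPM, all above the co-culture libraries, the highest of which reached 173 CPM.

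Values tended to be either 0 or well above it. Of the 396 values (36 genes in 11 libraries), 170 were 0, 26 were counts of 1 to 9, and 200 were counts of 10 or more. Zeros made up 47.2% of the values in fibril co-cultures, 52.8% in untreated co-cultures and 31.2% in microglia alone. The sum over all 36 genes was 1485 ± 216 CPM in fibril co-cultures (SD, n = 4), 1301 ± 58.3 CPM in untreated co-cultures (n = 3) and 2034 ± 177 CPM in microglia alone (n = 4). Basp1, Sox4 and Marcksl1 together took 89.9% to 93.7% of that sum in fibril co-cultures, 87.0% to 95.9% in untreated co-cultures and 70.4% to 89.6% in microglia alone. Without these 3, a choice made after their values were seen, the sum was 120.0 ± 10.9 CPM in fibril co-cultures, 119 ± 60.0 CPM in untreated co-cultures and 464 ± 206 CPM in microglia alone. Library 4 of microglia alone was the lowest of its group, at 191 CPM, against 641, 603 and 420.1 CPM in libraries 1 to 3.

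**Figure D2:**
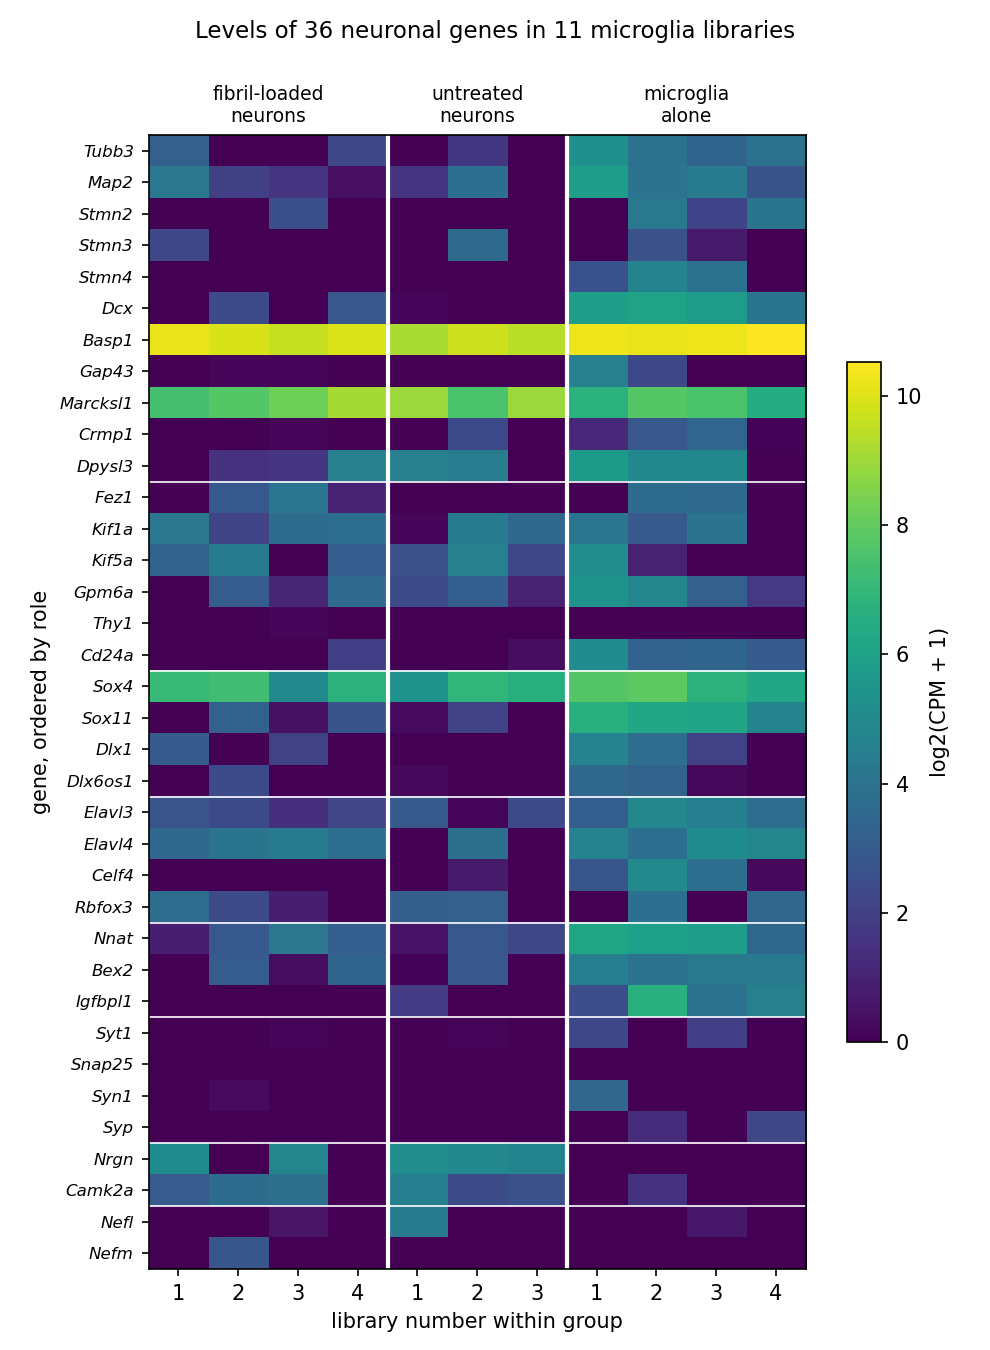
Level of each of the 36 neuronal genes as log2(CPM + 1), with genes in rows ordered by role and libraries in columns ordered as fibril co-cultures, untreated co-cultures and microglia alone. The darkest fields are values of 0. Dcx, Sox11, Nnat and Cd24a are brighter in microglia alone, Nrgn and Camk2a are brighter in most co-culture libraries, and Basp1, Sox4 and Marcksl1 are high in every column.

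Both kinds of co-culture were first set together against microglia alone. The log2 fold change is then the mean of those of the 2 co-cultures and not that of their pooled level. Stmn2, Fez1 and Dlx1 had no count in the untreated co-cultures, and Celf4 and Igfbpl1 none in the fibril co-cultures. Their estimates depend on the prior count of the fit, and their size is not a measured fold. Dcx and Dlx6os1 had only 2 and 3 counts in the untreated co-cultures, and Crmp1 had 1 in the fibril co-cultures. The size of their estimates is uncertain too. After the filter on low counts, 28 of the 36 genes could be tested, and the 8 others were Gap43, Thy1, Syt1, Snap25, Syn1, Syp, Nefl and Nefm. In edgeR's quasi-likelihood test with Benjamini-Hochberg (BH) adjustment over all 11276 genes tested, 3 of the 28 were lower in the co-cultures (Dcx, Sox11 and Igfbpl1) and 1 was higher (Nrgn). Over all genes tested, 0.426% were called lower and 0.603% higher (1.03% in either direction), against 10.7% and 3.57% of the 28. A gene seen mostly in 1 group passes the filter through that group, so these shares describe the genes tested and not all 36. The 36 were also chosen with earlier results of these data known, so the shares are a description and not a test. At an unadjusted p below 0.05, 12 were lower and 2 higher, where 6.2% and 5.12% of all genes were. The median log2 fold change of the 28 was -2.41, also with Nrgn and Stmn4, which had no count on 1 side, set to their bounds, beside -0.09 over all genes tested. Genes with no count in only 1 co-culture kept their fitted values in this median. CPM ranges of co-cultures and microglia alone did not overlap for 8 genes, all lower in the co-cultures, where 1.45% of all genes were. These 8 were Tubb3, Dcx, Basp1, Cd24a, Sox11, Elavl3, Bex2 and Igfbpl1. In GRCm38.p6 the 4 called genes lie on the minus strand, Dcx at chrX:143855842-143933396, Sox11 at chr12:27334268-27342718, Igfbpl1 at chr4:45809507-45826827 and Nrgn at chr9:37544493-37552745.

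Among the 11 genes of the young neuron cytoskeleton and growth cone, 10 could be tested, and Dcx fell while no other passed in edgeR. DESeq2 also called Basp1 and Stmn4 lower and Marcksl1 higher, with BH-adjusted p of 0.00979, 0.00124 and 0.0217, and edgeR with no filter on low counts called Stmn4 and Marcksl1 (0.019 and 0.00325). Dcx, the microtubule-binding protein of migrating neuroblasts, had 0, 4.20, 0 and 6.17 CPM in the fibril co-cultures, 0.121, 0 and 0 CPM in the untreated co-cultures and 56.4, 66.5, 55.4 and 15.9 CPM in microglia alone. Every library of microglia alone lay above every co-culture library. The log2 fold change was -7.03 (SE 1.28, edgeR BH-adjusted p = 0.00661). It is the mean of -4.22 with fibril-loaded and -9.84 with untreated neurons, and the latter rests on 2 counts in the co-cultures. Dcx was called after leaving out each of the 11 libraries in turn, with adjusted p between 0.00296 and 0.0498.

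Basp1, a membrane protein of growth cones, had 1139, 932, 769 and 961 CPM in the fibril co-cultures, 579.6, 853 and 696 CPM in the untreated co-cultures and 1214, 1144, 1229 and 1469 CPM in microglia alone. The groups did not overlap, but the lowest library of microglia alone and the highest co-culture library were nearly level. The log2 fold change of -0.62 (SE 0.20) did not pass the test (edgeR BH-adjusted p = 0.179). Marcksl1, an actin regulator related to MARCKS, had 169, 212, 297 and 545 CPM in the fibril co-cultures, 484, 187 and 483 CPM in the untreated co-cultures and 104, 214, 185 and 91.4 CPM in microglia alone. The groups overlapped, library 4 of the fibril and libraries 1 and 3 of the untreated co-cultures stood highest, and the log2 fold change of 1.21 (SE 0.36) did not pass (adjusted p = 0.126).

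Dpysl3, a mediator of semaphorin signals in axons, had 0, 1.87, 2.16 and 23.2 CPM in the fibril co-cultures, 23.2, 20.9 and 0 CPM in the untreated co-cultures and 52.2, 29.5, 29.5 and 0 CPM in microglia alone. Map2, the microtubule-associated protein of dendrites, had 16.9, 3.04, 2.06 and 0.332 CPM in the fibril co-cultures, 2.06, 13.2 and 0 CPM in the untreated co-cultures and 59.4, 15.3, 19.9 and 5.60 CPM in microglia alone. Both overlapped between groups and neither passed the test, with log2 fold changes of -1.47 for Dpysl3 and -2.23 for Map2. Tubb3, the neuronal β-tubulin, reached at most 8.40 CPM in a co-culture library and at least 9.39 CPM in each library of microglia alone, and its log2 fold change of -3.64 had an adjusted p of 0.415. The stathmins regulate microtubule growth, and Stmn4 had no count in any co-culture library, against 5.25, 24.6, 14.4 and 0 CPM in microglia alone. Set against a floor of 3 counts per library, Stmn4 was at least 46.5-fold lower in the co-cultures, or at least 27.5-fold lower without library 2 of microglia alone, but it missed the threshold (edgeR BH-adjusted p = 0.0953). Stmn2 had a count in 1 co-culture library and 3 libraries of microglia alone, with a log2 fold change of -6.37, and Crmp1 had a count in 2 and 4 with -4.37. Stmn3 had a count in 2 and 2, and its log2 fold change of 0.37 changed sign when single libraries were left out. Gap43, the growth-associated protein, was not tested: it had single counts in libraries 2 and 3 of the fibril co-cultures, none in the untreated co-cultures, and 291 and 39 counts in libraries 1 and 2 of microglia alone.

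None of the 5 tested genes of axonal transport and membrane passed in edgeR, while DESeq2 called Cd24a lower (BH-adjusted p = 0.0279). Cd24a, a surface glycoprotein of immature neurons that some blood cells also carry, had 0, 0, 0 and 2.85 CPM in the fibril co-cultures, 0, 0 and 0.296 CPM in the untreated co-cultures and 32.3, 8.63, 9.39 and 6.94 CPM in microglia alone. The ranges did not overlap, and the log2 fold change was -5.65 (SE 2.04, edgeR BH-adjusted p = 0.242). Fez1, an adaptor of the kinesin motor, and Gpm6a, a membrane glycoprotein of neurites, had log2 fold changes of -4.57 and -2.09 with overlapping ranges. That of Fez1 came from the untreated co-cultures, where it had no count. In the fibril co-cultures it averaged 6.00 CPM, beside 5.77 CPM in microglia alone, a log2 fold change of 0.06. The kinesins Kif1a and Kif5a, which carry cargo along axons, had log2 fold changes of 0.16 and 0.14, with 95% intervals of -2.61 to 2.93 and -3.29 to 3.57, and both changed sign when single libraries were left out. Thy1, a surface protein of mature projection neurons, had 1 count in all 11 libraries together.

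Among the 3 transcription factor genes and the antisense RNA Dlx6os1, Sox11 fell. It encodes a SoxC factor of newborn neurons and had 0, 8.64, 0.375 and 5.57 CPM in the fibril co-cultures, 0.242, 3.14 and 0 CPM in the untreated co-cultures and 94.7, 78.6, 69.8 and 25.0 CPM in microglia alone. Every co-culture library lay below every library of microglia alone, and the log2 fold change was -5.06 (SE 1.08, edgeR BH-adjusted p = 0.0237). The call was lost without library 1 of the untreated co-cultures or without library 1, 2 or 3 of microglia alone, with an adjusted p of up to 0.108. Sox4, the related SoxC factor, had 139.9, 157, 32.0 and 108 CPM in the fibril co-cultures, 40.1, 122 and 99.9 CPM in the untreated co-cultures and 208, 235, 109 and 78.7 CPM in microglia alone. Unlike those of Sox11, the groups overlapped, and the log2 fold change of -0.69 (SE 0.39) did not pass (adjusted p = 0.55). Dlx1, a homeobox factor of forebrain interneurons, had a count in 2 of 7 co-culture libraries and 3 of 4 libraries of microglia alone, with a log2 fold change of -6.00. Dlx6os1, the antisense RNA of the neighbouring Dlx6, also had a count in 2 and 3, with a log2 fold change of -4.16. Neither passed. Both overlap a gene on the opposite strand, as Map2, Crmp1, Sox4, Celf4, Rbfox3, Nnat, Syt1, Snap25, Syn1, Syp, Nefl and Nefm do. Tubb3, Elavl3 and Syt1 overlap a protein-coding gene model on their own strand, and Map2, Gap43, Gpm6a, Dlx6os1, Celf4, Rbfox3, Syn1 and Camk2a one of another kind. The assignment of reads to these genes is uncertain.

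Promoters are printed for Dcx and Sox11, which were low in the co-cultures, and for Nrgn, which was seen there alone, so that genes of opposite pattern can be read side by side. They are RefSeq sequences of GRCm38.p6, 300 bases each, from 250 before to 50 after a RefSeq start of transcription, taking the first where the table lists several. For Dcx this start is not the end of the gene span given above, and RefSeq lists a further one that is not shown. All 3 lie on the minus strand: Dcx at chrX:143933170-143933469, Sox11 at chr12:27342669-27342968 and Nrgn at chr9:37552696-37552995. Capitals mark a homeobox core (TAATTA) in Dcx and an E-box (CAGCTG) in Sox11.
Dcx: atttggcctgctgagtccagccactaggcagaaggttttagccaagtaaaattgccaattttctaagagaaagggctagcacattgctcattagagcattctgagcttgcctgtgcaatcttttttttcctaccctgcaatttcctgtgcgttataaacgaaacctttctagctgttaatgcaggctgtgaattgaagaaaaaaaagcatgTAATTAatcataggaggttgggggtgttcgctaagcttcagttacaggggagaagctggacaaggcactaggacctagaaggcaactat
Sox11: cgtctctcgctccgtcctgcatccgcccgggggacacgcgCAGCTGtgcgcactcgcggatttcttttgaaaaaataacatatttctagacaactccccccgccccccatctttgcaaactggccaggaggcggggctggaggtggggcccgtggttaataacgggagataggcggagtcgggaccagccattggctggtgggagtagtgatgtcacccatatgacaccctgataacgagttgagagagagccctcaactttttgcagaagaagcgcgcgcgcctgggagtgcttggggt
Nrgn: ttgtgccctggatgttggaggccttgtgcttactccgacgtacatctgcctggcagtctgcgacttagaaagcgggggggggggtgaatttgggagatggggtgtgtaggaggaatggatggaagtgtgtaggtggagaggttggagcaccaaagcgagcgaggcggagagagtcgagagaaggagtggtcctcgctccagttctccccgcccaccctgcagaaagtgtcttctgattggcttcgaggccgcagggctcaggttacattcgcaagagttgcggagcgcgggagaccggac
The bases G and C made up 43.0% of the Dcx promoter, 58.7% of that of Sox11 and 59.3% of that of Nrgn, with 3, 21 and 17 CpG sites. A promoter was found for 23 of the 36 genes, and 4 motifs were searched on both strands. CAGCTG was in 5 of the 23 (Kif1a, Dlx6os1, Elavl3, Sox11 and Sox4) and in 16.11% of all 27025 promoters. TAATTA was in 2 (Dlx6os1 and Dcx) and in 5.31% of all, and AACAAT, a Sox core, in 3 (Elavl4, Gpm6a and Fez1) and in 10.92% of all. The core of the RE1 element, searched by its fixed bases, was in none of the 23 and in 0.03% of all. A match is a description of these letters and not a binding site.

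None of the 4 genes of neuronal RNA-binding proteins passed in edgeR, while DESeq2 called Celf4 lower (BH-adjusted p = 0.00324). All 4 estimates were negative, that of Rbfox3 in some settings only. Elavl4, a Hu protein that stabilises neuronal mRNAs, had 10.8, 15.4, 19.8 and 13.1 CPM in the fibril co-cultures, 0, 13.9 and 0 CPM in the untreated co-cultures and 24.3, 13.5, 33.8 and 27.1 CPM in microglia alone. The fibril co-cultures and microglia alone overlapped, and the log2 fold change was -1.58 (SE 1.13, edgeR BH-adjusted p = 0.689). Without library 2 of the untreated co-cultures, the only one of its group with a count, the log2 fold change was -6.02 and passed (adjusted p = 0.00969). No count was then left in that group, so the size of this estimate depends on the prior count of the fit. Elavl3, another Hu protein, reached at most 6.65 CPM in a co-culture library and at least 7.75 CPM in microglia alone, with a log2 fold change of -2.25. Celf4, a regulator of synaptic mRNAs, had a count in 1 of 7 co-culture libraries and in all 4 of microglia alone, with a log2 fold change of -7.96 (adjusted p = 0.134). Rbfox3, the splicing factor known as the NeuN antigen, had a count in 5 and 2, and its log2 fold change of -0.24 had a 95% interval of -4.43 to 3.95 and changed sign when single libraries were left out.

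Of the 3 other young neuron genes, Igfbpl1 fell. Igfbpl1, an insulin-like growth factor binding protein relative made in neuroblasts, had no count in the 4 fibril co-cultures, 2.60, 0 and 0 CPM in the untreated co-cultures and 4.54, 102, 14.3 and 22.7 CPM in microglia alone. Every library of microglia alone was above every co-culture library, but library 2 stood far above the others. The log2 fold change was -8.59 (SE 1.66, edgeR BH-adjusted p = 0.0148), and -7.23 with an adjusted p of 0.247 without that library. Nnat, an imprinted gene of developing brain, had 0.833, 6.42, 17.3 and 7.76 CPM in the fibril co-cultures, 0.423, 6.27 and 3.85 CPM in the untreated co-cultures and 73.7, 59.6, 56.7 and 10.6 CPM in microglia alone. Library 3 of the fibril co-cultures overlapped with library 4 of microglia alone, and the log2 fold change of -3.23 (SE 0.80) missed the threshold (adjusted p = 0.0536). DESeq2 called it (BH-adjusted p = 0.00405), as did edgeR with no filter on low counts (0.00173), with a block by library codes (0.0465) and without library 1 or 3 of the fibril co-cultures or library 4 of microglia alone (0.0431 to 0.0496). Nnat lies within Blcap on the opposite strand, and reads of the pair may not be told apart. Bex2, a small adaptor protein of neurons, reached at most 9.56 CPM in a co-culture library and at least 13.98 CPM in microglia alone, with a log2 fold change of -2.57.

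**Figure D3:**
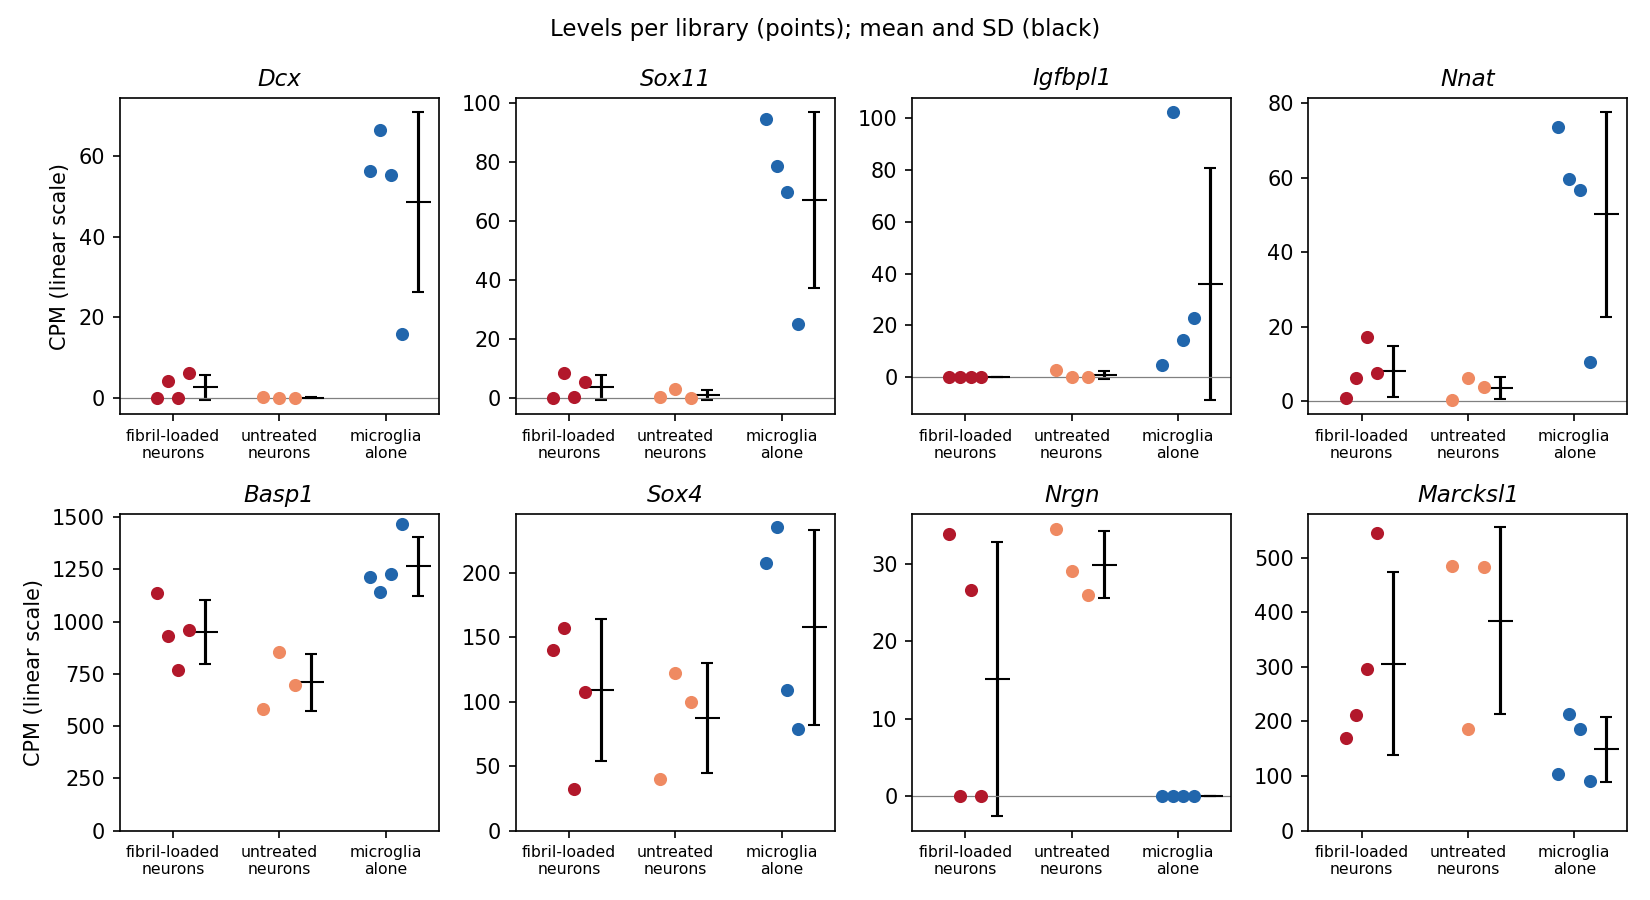
CPM per library of single neuronal genes on linear axes, 1 panel a gene, with points for libraries and black marks for the mean and SD, ordered as fibril co-cultures, untreated co-cultures and microglia alone. Dcx and Sox11 of microglia alone lie above all co-culture points, while all points of Nrgn in microglia alone are at 0.

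The 4 genes of vesicle release were scarce in every group. Syt1, the calcium sensor of vesicle release, had 1 count in library 3 of the fibril co-cultures, 1 in library 2 of the untreated co-cultures, and 49 and 33 in libraries 1 and 3 of microglia alone, or 0, 0, 0.0938 and 0 CPM, 0, 0.0896 and 0 CPM, and 3.84, 0, 2.92 and 0 CPM. Snap25, a SNARE protein of the presynapse, had no count in any of the 11 libraries. Syn1, which tethers vesicles, had 2 counts in library 2 of the fibril co-cultures, none in the untreated co-cultures and 131 in library 1 of microglia alone. Syp, a vesicle membrane protein, had no count in either co-culture, and 16 and 45 counts in libraries 2 and 4 of microglia alone. None of these 4 could be tested, and what counts they had were nearly all in microglia alone.

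Nrgn rose. Nrgn, neurogranin, the postsynaptic protein that binds calmodulin, had 33.9, 0, 26.7 and 0 CPM in the fibril co-cultures, 34.5, 29.0 and 26.0 CPM in the untreated co-cultures and no count in the 4 libraries of microglia alone. It was seen in 5 of 7 co-culture libraries, at a similar level in all 5, and libraries 2 and 4 of the fibril co-cultures were without it as microglia alone were. Against the floor of 3 counts per library (counting error alone), it was at least 81.8-fold higher in the co-cultures (edgeR BH-adjusted p = 0.0356). The call was lost in 7 of 11 fits that left out 1 library (library 1 or 3 of the fibril co-cultures, library 1 of the untreated co-cultures or any of microglia alone), with an adjusted p of up to 0.117. Camk2a, the calmodulin-dependent kinase of excitatory synapses, had 7.15, 12.1, 13.8 and 0 CPM in the fibril co-cultures, 22.4, 4.39 and 5.04 CPM in the untreated co-cultures and 0, 1.88, 0 and 0 CPM in microglia alone. It had a count in 6 of 7 co-culture libraries and overlapped with microglia alone through the fibril co-culture library at 0, and its log2 fold change of 4.30 (SE 2.24) did not pass (adjusted p = 0.494). Library 2 of microglia alone, the only one there with a count, set that value: without it no count was left there and the estimate, which then depends on the prior count of the fit, was 9.92 (adjusted p = 0.205), and without any other library it lay between 3.71 and 4.50.

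The neurofilament genes Nefl and Nefm, structural proteins of axons, were seen in single libraries and could not be tested. Nefl had 5 counts in library 3 of the fibril co-cultures, 327 in library 1 of the untreated co-cultures and 7 in library 3 of microglia alone. Nefm had 52 counts in library 2 of the fibril co-cultures and no other. Summed over the 10 genes labelled mature, the level was 29.6 ± 23.4 CPM in fibril co-cultures, 52.6 ± 28.5 CPM in untreated co-cultures and 12.05 ± 5.82 CPM in microglia alone. Library 4 of the fibril co-cultures had none. The members went different ways: Nrgn and Camk2a together averaged 23.4, 40.5 and 0.471 CPM in fibril co-cultures, untreated co-cultures and microglia alone, and the 4 genes of vesicle release 0.0818, 0.0299 and 5.59 CPM. For the 26 genes labelled young the sums were 1456 ± 229, 1248 ± 86.4 and 2022 ± 174 CPM in the same order, most of it Basp1. Both sums depend on how the genes were labelled.

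**Figure D4:**
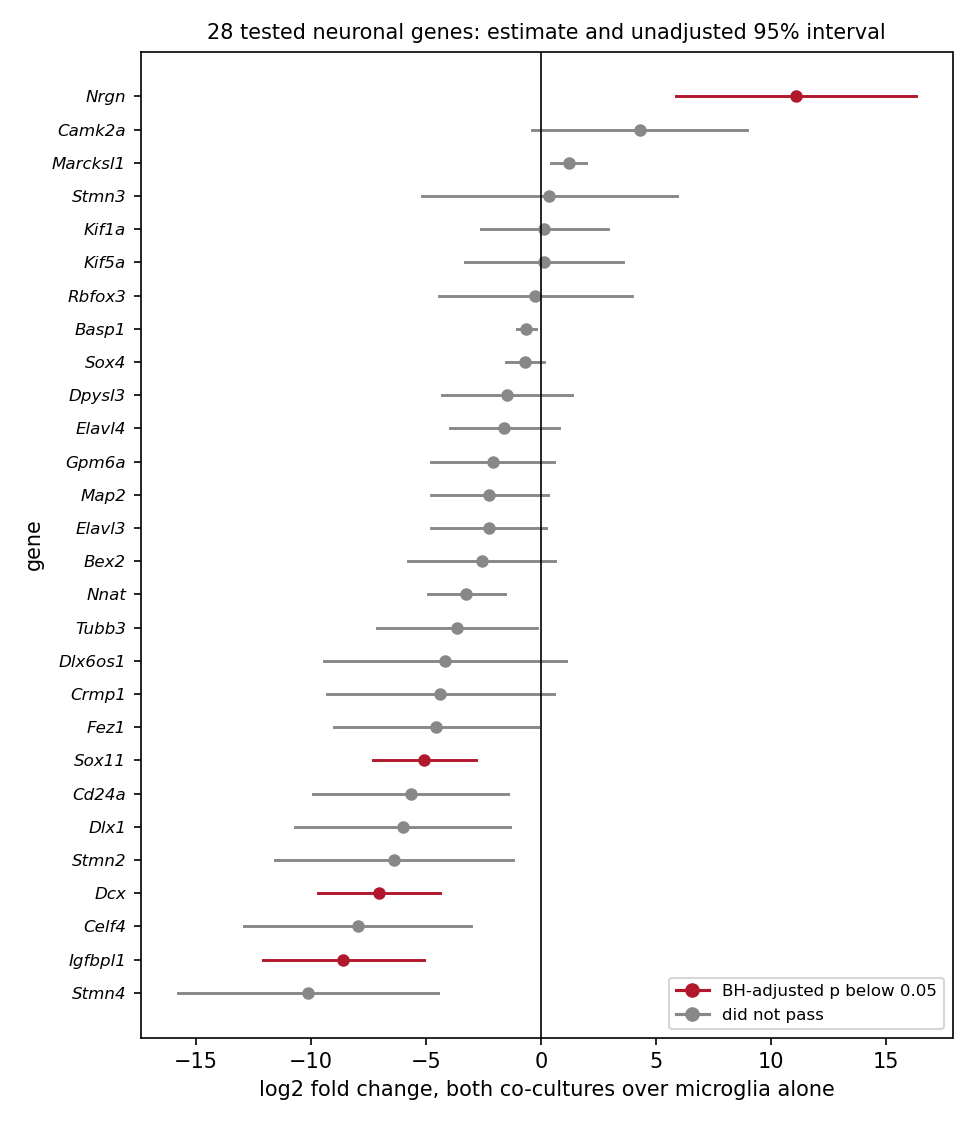
Log2 fold change of both co-cultures over microglia alone for the 28 neuronal genes tested, as estimates with unadjusted 95% intervals. Nrgn lies far to the right, Dcx, Sox11 and Igfbpl1 to the left, and these 4 are coloured as having a BH-adjusted p below 0.05. Estimates for genes with no count in a group depend on the fit's prior count.

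Each co-culture was then set against microglia alone, with the same 4 libraries of microglia alone in both comparisons. With fibril-loaded neurons, Igfbpl1 was lower and no listed gene was called higher, where 0.0532% of all genes were called lower and 0.266% higher (0.319% together). At an unadjusted p below 0.05, 7 listed genes were lower and 2 higher, where 3.89% and 4.25% of all genes were. Igfbpl1 was at least 138-fold lower against the floor of 3 counts per library (edgeR BH-adjusted p = 0.0361), or at least 53.3-fold lower without library 2 of microglia alone. That call was lost in 7 of 11 fits that left out 1 library, namely any fibril co-culture library or library 2, 3 or 4 of microglia alone, with an adjusted p of up to 0.367. Ranges did not overlap for 9 genes, all lower, where 2.92% of all genes were lower and 2.7% higher: the 8 above and Celf4, which had no count in the fibril co-cultures and was at least 47.2-fold lower, or at least 24.2-fold lower without library 2 of microglia alone. DESeq2 called it there (BH-adjusted p = 0.00283). Dcx and Sox11 had log2 fold changes of -4.22 and -4.20 (adjusted p = 0.281 and 0.231), and Nrgn was at least 57.7-fold higher (adjusted p = 0.1), or at least 33.9-fold without library 1 of the fibril co-cultures. DESeq2 called all 3. The median over the 28 tested was -2.04, beside -0.04 over all genes.

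With untreated neurons, Dcx was lower and Nrgn higher, where 0.177% of all genes were called lower and 0.461% higher. At an unadjusted p below 0.05, 10 listed genes were lower and 2 higher, where 5.67% and 4.66% of all genes were. Dcx had 2 counts in 3 untreated co-culture libraries against 2207 in microglia alone, a ratio of 9.37e-04 (95% counting interval 1.13e-04 to 0.00339), with an edgeR BH-adjusted p of 0.0268. The call was lost in 5 of 11 fits that left out 1 library (library 2 or 3 of the untreated co-cultures or library 1, 2 or 3 of microglia alone), with an adjusted p of up to 0.103. Nrgn was at least 114-fold higher (adjusted p = 0.0488), a call kept in 2 of 11 such fits, those without library 2 or 4 of the fibril co-cultures, with an adjusted p of up to 0.121 in the others. Ranges did not overlap for 9 genes that were lower, where 5.45% of all genes were, and for 2 that were higher (Nrgn and Camk2a), where 4.9% of all genes were. Stmn2, Dlx1 and Fez1 had no count in the untreated co-cultures, and a count in 3, 3 and 2 of the 4 libraries of microglia alone. By mean level against the floor (counting error alone) they were at least 43.6-fold, 47.9-fold and 27.6-fold lower. Without library 1 of microglia alone the bound was 25.1-fold for Dlx1, and without library 2 it was 17.6-fold for Fez1. None of the 3 passed in edgeR, while DESeq2 called all 3, with BH-adjusted p of 0.0454 for Stmn2, 0.0132 for Dlx1 and 0.042 for Fez1. The median over the 28 tested was -2.36, beside -0.05 over all genes.

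Fibril co-cultures were last set against untreated co-cultures, to ask what the fibrils added. No listed gene and no other gene was called by edgeR (0% of genes called, smallest BH-adjusted p 0.903 over all genes and 1 for the listed genes). At an unadjusted p below 0.05, 3 listed genes were higher and 1 lower, where 2.64% and 1.3% of all genes were, 445 genes in all. Dcx had 129 counts in fibril co-cultures against 2 in untreated co-cultures (log2 fold change 5.61, 95% interval 1.92 to 9.30, edgeR BH-adjusted p = 1). Fez1 and Dlx1 had no count in the untreated co-cultures, and a count in only 3 and 2 of the 4 fibril co-culture libraries. By mean level against the floor, Fez1 was at least 28.7-fold and Dlx1 at least 11.9-fold higher with fibrils, each with an adjusted p of 1. These bounds cover counting error only and not the spread between libraries. The bound was 11.9-fold for Fez1 without library 3 and 4.93-fold for Dlx1 without library 1 of the fibril co-cultures. Igfbpl1 had none in the fibril co-cultures and 43 counts in a single untreated library. DESeq2 called 187 genes here, Dcx among them and no other listed gene, while limma on the normalized table called 0. CPM ranges of the co-cultures lay apart for none of the 28, where 2.39% of all genes were higher and 2.3% lower. For Nrgn the log2 fold change was -0.98 (95% interval -4.40 to 2.44). Of the 28 tested, 17 estimates were positive and 10 negative, with a median of 0.20 beside 0 over all genes.

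Other neuronal genes, listed by role but with earlier results of these data known, were read in the comparison of both co-cultures with microglia alone. Of 30 further pan-neuronal genes 22 were tested, and 1 was lower and 0 higher. It was Tubb2b, a β-tubulin of young neurons, at 95.7 ± 22.7 CPM in fibril co-cultures (SD, n = 4), 77.0 ± 32.99 CPM in untreated co-cultures (n = 3) and 635 ± 349 CPM in microglia alone (n = 4), with a log2 fold change of -2.89 (SE 0.31, edgeR BH-adjusted p = 3.12e-05). Its reads may be shared with near-identical tubulin genes. Ncam1, the neural cell adhesion molecule, did not pass at -2.96 (adjusted p = 0.221), nor did Islr2, with 2 counts in the co-cultures against 256 in microglia alone (adjusted p = 0.206). Of 24 further synapse genes 12 were tested and none was called. The smallest p belonged to the presynaptic scaffold gene Bsn at -6.16, the vesicle gene Syn2 at -3.43 and the postsynaptic scaffold gene Dlg4 at -2.40, with adjusted p of 0.364, 0.634 and 0.64.

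Genes of cortical neuron identity were nearly all rare. Of 12 excitatory identity genes 3 were tested, and Bcl11b, a transcription factor of deep-layer neurons, was lower: it had no count in the co-cultures and 15.9 ± 13.7 CPM in microglia alone, at least 66.9-fold lower (edgeR BH-adjusted p = 0.0449). That call was kept in 2 of the 8 fits leaving out 1 library in which Bcl11b could be tested. Mef2c, which microglia also transcribe, had 258 ± 59.2 CPM in fibril co-cultures, 207 ± 35.1 CPM in untreated co-cultures and 409.8 ± 76.6 CPM in microglia alone (log2 fold change -0.83, adjusted p = 0.0953). Of 16 genes of inhibitory neurons and their neuroblasts, 14 had no count in the fibril co-cultures, 14 none in the untreated co-cultures and 5 none in microglia alone. Their summed level was 0.445 ± 0.77 CPM, 2.81 ± 3.97 CPM and 23.9 ± 18.7 CPM in the same order, and 2 were tested. Gad2, which makes the transmitter GABA, had a log2 fold change of -6.16 (adjusted p = 0.296), and Npy, a neuropeptide, one of 0.57 (adjusted p = 1). Of 13 neural progenitor genes 8 were tested and none was called, with the intermediate filament genes Nes at -1.25 and Vim at 0.53 and the stem cell factor Sox2 at -2.60 (adjusted p of 0.192, 0.406 and 0.605).

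The summed levels of marker genes of other cells are given for each group, and those of oligodendrocyte, endothelial and ependymal markers overlapped between all groups. The 12 astrocyte markers summed to 658 to 950.4 CPM in fibril co-cultures, 869 to 1525 CPM in untreated co-cultures and 483 to 636 CPM in microglia alone, nearly all of it Glul, the glutamine synthetase gene, which microglia can also transcribe. Glul had 771 ± 176 CPM in fibril co-cultures, 1212 ± 407 CPM in untreated co-cultures and 498 ± 77.9 CPM in microglia alone. It was called higher with untreated neurons (a log2 fold change of 1.28 with an SE of 0.29, and a BH-adjusted p of 0.0422 in edgeR), but not with fibril-loaded neurons (adjusted p = 0.566) or with both (adjusted p = 0.0664). Of the 12 markers, 2 had no count in microglia alone (Gfap and Aldh1l1), 1 had none in the fibril co-cultures and 2 had none in the untreated co-cultures. In both co-cultures against microglia alone 6 of the 12 were tested and 0 were called, with 4 positive and 2 negative estimates. The 12 oligodendrocyte lineage markers summed to 163 to 361 CPM, 293 to 334 CPM and 187 to 330.4 CPM in the same order of groups. Endothelial markers, 7 of 8 in the table, summed to 4.50 to 64.0, 18.2 to 81.3 and 28.9 to 113 CPM. Fibroblast and mural markers, 8 of 9, summed to 47.4 to 113, 48.1 to 67.7 and 14.5 to 37.1 CPM, most of it Cspg4, which is also among the oligodendrocyte lineage markers. Ependymal and choroid plexus markers, 5 of 7, summed to 0 to 34.1, 0 to 77.9 and 0 to 256 CPM. The 12 cell cycle genes summed to 414 to 937, 373 to 946 and 649 to 1338 CPM, and Mcm7, of the replicative helicase, was lower in the co-cultures (log2 fold change -1.72, edgeR BH-adjusted p = 0.0165), a call kept in 9 of 11 fits leaving out 1 library. Rn45s, the ribosomal RNA precursor, took 10.97% to 17.0% of counts in fibril co-cultures, 10.7% to 15.7% in untreated co-cultures and 14.001% to 24.8% in microglia alone. The part of these markers in the levels of the neuronal genes was not tested.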

How the data were processed

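Gene expression was measured with a 3′ mRNA kit (QuantSeq, forward) in 11 libraries, per the labels' protocols. Alignment and counting tools appear in the submitters' processing notes as STAR, Partek and DESeq2, with mm10 as the build and no versions. Use of strand in counting and removal of duplicate reads are not given in the sources used here. The authors deposited raw counts per gene symbol, which were the basis of every comparison. The authors also deposited a normalized table, handled as a score: between 99.8% and 100% of its values in a library lay within 0.51 of the count over 1 size factor per library.

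Groups follow the labelled treatment; library numbers within one follow the order of deposition and pair nothing. The 36 genes and all lists were chosen with earlier results of these data known. Of 16934 genes, 2828 had no count and 11276 passed filterByExpr. Counts were tested in R 4.3.3 with edgeR 4.0.16: TMM scaling, quasi-likelihood test, group as the only term, all 11 libraries, 4 contrasts, two-sided, BH adjustment over 11276 genes, threshold 0.05. CPM uses TMM-adjusted library sizes; totals ran from 8253070 to 16802451. The common biological coefficient of variation was 1.15. Floors are 3 counts per library; floors and counting intervals cover counting error only. Log2 fold changes are co-culture over microglia alone, or fibril over untreated co-culture, with standard errors from the edgeR fit. For both co-cultures together they are the mean of the log2 fold changes of the fibril and the untreated co-cultures. Per-library CPM is given for listed genes that average 20 CPM or more in 1 group, called genes, and Nrgn, Syt1, Snap25 and Dcx by rule, and for further ones chosen after their values were seen. From the other neuronal lists, called genes and up to 3 of smallest p are named, except 1 that is not reported here; from the marker lists, called genes and some chosen as defining or abundant.

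The code was tested on simulated data for both co-cultures against microglia alone: 5, 25, 41 and 42 of 50 genes changed 2-, 4-, 8- and 16-fold were found among 10601 tested, with 10 false calls. Only genes averaging at least 10 CPM were changed. Alternatives were RLE or total-count scaling, no filter, a mean of at least 5 CPM, DESeq2 1.42.0, limma 3.58.1 on log2(value + 1) of the normalized table, the groups compared only, Rn45s left out, libraries left out, and a block by library codes. Promoters are from RefSeq, and overlaps from the gene annotation of the same build.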

Additional observations from a re-analysis of the deposited data

Results flagged for a closer look

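In groups of 4 libraries, a gene was picked out when its highest or lowest library lay so far from the others that the gap passed the 95% critical value of Dixon's test. Of 63 gene and group pairs tested, 19 were picked out, and in most of them the other 3 libraries were at 0. A group with a single library above 0 is always picked out. The critical value assumes normally distributed values, so the 19 cannot be set against a chance rate. In the fibril co-cultures, library 4 stood apart at 2.85 CPM for Cd24a and 23.2 CPM for Dpysl3. Library 2 stood apart at 4.20 CPM for Dlx6os1, 6.07 CPM for Nefm and 0.234 CPM for Syn1. Library 1 stood apart at 16.9 CPM for Map2 and 3.75 CPM for Stmn3. Library 3 stood apart at 4.88 CPM for Stmn2, 0.469 CPM for Nefl and 0.0938 CPM, a single count, for each of Crmp1, Syt1 and Thy1. In microglia alone, library 1 stood apart at 32.3 CPM for Cd24a, 22.8 CPM for Gap43, 34.2 CPM for Kif5a and 10.3 CPM for Syn1. Library 2 stood apart at 1.88 CPM for Camk2a and 5.16 CPM for Stmn3, and library 3 at 0.62 CPM for Nefl. The untreated co-cultures, with 3 libraries, were not examined in this way.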

How the results depend on the processing

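Dcx stayed lower and called in both co-cultures against microglia alone in all 9 other settings and all 11 fits that left out 1 library. Igfbpl1 stayed called in 9 and 10 of these, Sox11 in 8 and 7, and Nrgn in 6 and 4; Bcl11b in 4 of 9 and 2 of 8. No low-count filter called 341, 234, 164 and 5 genes for both, untreated and fibril co-cultures against microglia alone and fibril against untreated co-cultures, in that order, against 116, 72, 36 and 0, and DESeq2 called 511, 468, 236 and 187. Listed genes called were 7, 5 and 4 with no filter for the comparisons with microglia alone and 10, 12, 6 and 1 with DESeq2, against 4, 2, 1 and 0. A mean of at least 5 CPM gave 47 genes for untreated co-cultures, with 1 listed gene, and 0 listed genes for fibril co-cultures. With limma, 0 listed genes were called for untreated and 0 for fibril co-cultures. With the groups compared only, 41 genes were called for untreated co-cultures; for both co-cultures this setting is the fit reported. Without the library of fewest genes in each group, 59, 29 and 1 genes were called for both, untreated, and fibril against untreated co-cultures, and 2 listed genes for both. Leaving out 1 library gave 55 to 106 genes for both, 32 to 76 for untreated, 23 to 42 for fibril co-cultures and 0 to 1 between the co-cultures, and 1 to 5, 0 to 2 and 0 to 1 listed genes against microglia alone. Without Rn45s the 36 genes summed to 1751, 1524 and 2404 CPM in fibril co-cultures, untreated co-cultures and microglia alone. Log2 fold changes near 0 turned round: Stmn3 to -0.41 with limma, -3.00 without the libraries of fewest genes and -3.94 to 0.66 with 1 library left out, Rbfox3 to 0.70 with limma and -0.90 to 0.55 with 1 left out, Kif1a -0.26 to 0.57 and Kif5a -0.49 to 4.71 with 1 left out. The cause was not tested.

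A replicate block by library code sets gave 177 genes for both and 66 for fibril co-cultures, with 2 listed genes for the fibril co-cultures. The labels do not pair libraries. Deviations of same-set libraries correlated between -0.02 and 0.069, but a correlation over all genes can miss a batch that moves only some of them. Whether the codes mark a batch was not tested. The common biological coefficient of variation was 1.15. In the simulation, which used each gene's own spread, 5 of 50 changes of 2-fold were found at these depths. Only better expressed genes were changed there, so its rates do not carry over to listed genes near 0.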

Other observations

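Within the fibril co-cultures, libraries differed in which neuronal genes they held; this was noticed after the values were seen and was not tested. Libraries 2 and 4 had Dcx at 4.20 and 6.17 CPM, Sox11 at 8.64 and 5.57 CPM, Bex2 at 7.24 and 9.56 CPM and Gpm6a at 7.36 and 11.1 CPM, and no count of Nrgn. Libraries 1 and 3 had Nrgn at 33.9 and 26.7 CPM, with Dcx at 0 and 0 CPM, Sox11 at 0 and 0.375 CPM, Bex2 at 0 and 0.282 CPM and Gpm6a at 0 and 1.22 CPM. Among the untreated co-cultures, library 2 held Nrgn at 29.0 CPM together with Sox11 at 3.14 CPM, Bex2 at 6.18 CPM and Gpm6a at 7.89 CPM. Other young neuron genes did not follow this split: Dlx1 had 6.87 and 3.10 CPM in libraries 1 and 3 of the fibril co-cultures and none in 2 and 4, Nnat was highest in library 3 at 17.3 CPM, Tubb3 and Map2 were highest in library 1 at 8.40 and 16.9 CPM, and Stmn2 was seen in library 3 alone at 4.88 CPM. Nor did Camk2a, which had 12.1 CPM in library 2, beside 7.15 and 13.8 CPM in libraries 1 and 3 and 0 CPM in library 4. All these genes were picked after their values were seen.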
